A study of Homo sapiens with 12 samples.

Results

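Aminoacyl-tRNA synthetases join each amino acid to its transfer RNA, the step that feeds the ribosome. The 35 genes described here were taken by name from a list of cytosolic and mitochondrial enzymes, and all 35 were found among the 60107 gene identifiers of the count table. Of them, 19 encode cytosolic enzymes and 16 encode mitochondrial enzymes. GARS1 and KARS1 are counted as cytosolic, although each also gives the mitochondrial enzyme for its amino acid, glycine or lysine.

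Every synthetase recognizes an amino acid and the tRNAs that carry it, and most amino acids have separate nuclear genes for the enzyme of the cytosol and that of the mitochondrion. Several cytosolic enzymes are held together with scaffold proteins in the multisynthetase complex. Many cytosolic synthetase genes are known targets of ATF4, a transcription factor whose translation is raised when amino acids are short.

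Cells of lines labeled U251P and U251T (U251 is a human glioblastoma line) were treated with DMSO as vehicle or with carmofur, a fluorouracil derivative that inhibits acid ceramidase, in a study of gene expression and cell migration. By the labels, all cells went without serum for 16 h and were then kept for 24 h in full medium with 10% serum and either agent. For its RNA sequencing the study describes vehicle or carmofur in the 16 h without serum as well, renewed for the final 24 h. The labels name the agent in the 24 h only, so the sources differ on the length of exposure. Each of the 4 groups (U251P vehicle, U251P carmofur, U251T vehicle and U251T carmofur) has 3 libraries. The study describes its experiments as biological replicates with technical replicates in each, while the labels give a replicate number only, and p-values measure the spread between these libraries.

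RNA was counted by 3′ sequencing (QuantSeq), in which reads come from the end of a transcript, so counts do not grow with its length. The U251P vehicle libraries held 5064504, 3295045 and 5263645 counts, and the U251P carmofur libraries 6350873, 5952838 and 4144841. The U251T vehicle libraries held 1300727, 2817379 and 566061 counts, and the U251T carmofur libraries 969763, 1078340 and 383633. Depth was therefore lower in U251T, where the synthetases of a library summed to between 1020 and 9287 cytosolic and between 43 and 309 mitochondrial counts. In U251P these sums were between 14278 and 22742 cytosolic and between 1039 and 2091 mitochondrial counts. Levels below are CPM, the counts per 1000000 of the library total after TMM scaling within each line.

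The libraries labeled U251T stood apart from those labeled U251P before any drug effect was considered. Transcripts of the mitochondrial genome took between 0.354% and 0.881% of counts in U251T and between 19.5% and 26.2% in U251P, while annotated pseudogenes took between 10.8% and 12.4% against between 0.272% and 0.307%. Of 5 genes that nucleated human cells express, all had counts in both lines, with sums from 5590 to 8740 CPM in U251T, led by TMSB10, and from 6960 to 8090 CPM in U251P, led by GAPDH. These similar sums rest on different genes. TMSB10 alone held 5160 to 8180 CPM in U251T against 1170 to 1500 CPM in U251P, while GAPDH was at 134 to 253 against 2820 to 3660 CPM, ACTB at 171 to 294 against 764 to 1030 CPM and EEF1A1 at 88.1 to 122 against 314 to 414 CPM. B2M, the light chain of MHC class I, lay between 0.759 and 15.5 CPM in the U251T libraries and between 1550 and 1920 CPM in the U251P libraries.

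Of 9 genes expected in an astrocytic glioma line, 8 had counts in U251T (S100B was at 0) and 9 in U251P. Their sums ran from 9720 to 15300 CPM in U251T and from 5630 to 6480 CPM in U251P, with VIM the most abundant in each line. NES, an intermediate filament of neural progenitors, ranged from 0 to 2.58 CPM in U251T and from 368 to 458 CPM in U251P. GFAP, the filament of astrocytes, lay the other way, with 20.7 to 81 CPM in U251T and 1 count over the 6 libraries of U251P. Marker sums of other cell types were low in both lines: neuron 3.7 to 38.5 CPM in U251T (led by RBFOX3) and 15.3 to 21.9 CPM in U251P (led by SYT1), with counts for 4 of 4 genes, and macrophage or microglia 8.88 to 20.7 and 1.08 to 2.78 CPM, led by CD68, with AIF1 at 0. Endothelial sums reached 0.948 CPM in U251T (PECAM1, with VWF and CDH5 at 0) and 0.386 CPM in U251P (CDH5, with PECAM1 and VWF at 0). Whether the libraries labeled U251T hold RNA of the labeled line or organism was not tested. Carmofur results are given apart for each line, and every comparison between the lines below carries this limit.

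In U251P, the transcripts of cytosolic synthetases were lower as a list with carmofur, while those of mitochondrial synthetases centered on no difference. All 19 cytosolic members passed the filter on low counts, and 17 of them had a fold change below 0 on the log2 scale (from 13 to 18 of them when 1 library was dropped). The median log2 fold change of the cytosolic members was -0.26, with quartiles of -0.37 and -0.04. The 16 mitochondrial members, which also all passed the filter, split into 8 lower and 8 higher with a median of 0.00, the same as the median over all 11426 genes tested. In bulk samples like these, fewer cells of a type and less RNA per cell cannot be told apart.

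No single difference passed the test in U251P. The quasi-likelihood test of edgeR with Benjamini-Hochberg adjustment called 0 members and 0 of all genes tested (0%) at an adjusted p under 0.05, DESeq2 called 0, and 402 genes had an unadjusted p under 0.05 with edgeR. At that unadjusted level 9 of 19 cytosolic members were lower, against 1.59% of all genes, and they were EPRS1, NARS1, GARS1, SARS1, AARS1, YARS1, MARS1, CARS1 and TARS1. Among the mitochondrial members 0 were lower and 1 (MARS2) was higher, against 1.93% of all genes. The carmofur libraries lay wholly below the vehicle libraries for 4 cytosolic members (EPRS1, NARS1, TARS1 and YARS1) and 1 mitochondrial member (HARS2), against 4.32% of all genes, and wholly above for 0 cytosolic members and 1 mitochondrial member (PARS2), against 4.01%.

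The cytosolic members together summed to 3860, 4230 and 4080 CPM in the vehicle libraries of U251P (mean 4060 ± 184, SD, n = 3) and to 3500, 2910 and 3750 CPM in the carmofur libraries (3390 ± 431). All carmofur sums were below all vehicle sums, and carmofur 2 was the lowest. The ratio of the means was 0.835. The mitochondrial members summed to 296, 308 and 290 CPM with vehicle (298 ± 8.97) and to 321, 306 and 304 CPM with carmofur (311 ± 9.49). These ranges overlapped, and the ratio was 1.04.

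**Figure D1:**
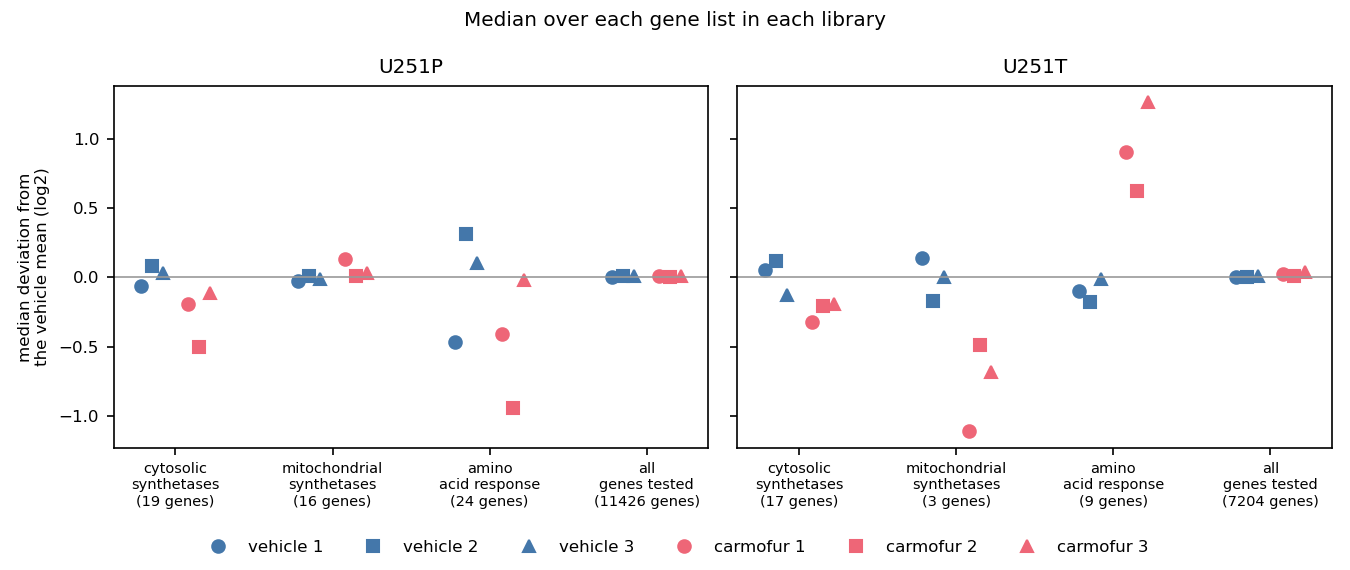
Median log2 deviation from the vehicle mean (vertical axis) over the tested cytosolic synthetases, mitochondrial synthetases, amino acid response genes and all genes (horizontal axis), with a point for each library (blue vehicle, red carmofur) and a panel for each line. In U251P carmofur 2 had the lowest cytosolic median, -0.50, and the amino acid response genes were lowest in the same library, at -0.94.

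The size of the cytosolic difference varied from library to library. Relative to the vehicle mean of each gene, the median deviation of the cytosolic members was -0.06, 0.08 and 0.03 in the vehicle libraries and -0.19, -0.50 and -0.11 in the carmofur libraries. Carmofur 2 held the largest deviation, and without it the median log2 fold change of the list was -0.15, compared with -0.26 with all libraries. Carmofur 2 also had the highest share of mitochondrial-genome transcripts of the U251P libraries (26.2%, the others 19.5% to 23.9%) and the lowest share of protein-coding genes (78.5%, the others 79.6% to 84.0%), and the part of this in the synthetase values was not tested. With vehicle 2 and carmofur 2 both left out, a choice made after the values were seen, the median was -0.13. The mitochondrial deviations were -0.03, 0.01 and -0.01 with vehicle and 0.13, 0.01 and 0.03 with carmofur.

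A list of 24 genes of the amino acid response, the transcripts that ATF4 and its partners are known to raise, moved by library as well. All 24 were below their vehicle mean in vehicle 1, all 24 were above it in vehicle 2, and all 24 were below it in carmofur 1 and in carmofur 2. Their median deviations were -0.47, 0.31 and 0.10 in the vehicle libraries and -0.41, -0.94 and -0.02 in the carmofur libraries. Between the groups all 24 had a fold change below 0 with a median of -0.49, and edgeR and DESeq2 each called 0. At an unadjusted p under 0.05 with edgeR, 10 of the 24 were lower, against 1.59% of all genes. With no filter on low counts edgeR called 9 of them, among 19 genes called in all. The median was -0.28 without vehicle 2 (22 below 0), -0.30 without carmofur 2 (23 below 0) and -0.15 without both (19 below 0). The part of this variation between libraries in the synthetase values was not tested.

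EPRS1, which charges glutamate and proline within the multisynthetase complex, had the smallest p of the cytosolic members in U251P. Its levels were 405, 440 and 386 CPM with vehicle and 331, 290 and 349 CPM with carmofur. All 3 carmofur libraries lay below all 3 vehicle libraries, with a log2 fold change of -0.34 (SE 0.102; edgeR adjusted p = 0.999, and from 0.523 to 1 over the alternatives). NARS1, the asparagine enzyme, was at 208, 230 and 217 CPM with vehicle and at 183, 141 and 184 CPM with carmofur. Its groups did not overlap either, and the log2 fold change was -0.37 (SE 0.115; edgeR adjusted p = 0.999, and from 0.543 to 1 over the alternatives).

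GARS1, the glycine enzyme of both compartments, was at 325, 441 and 390 CPM with vehicle and at 286, 217 and 343 CPM with carmofur. Vehicle 1 lay below carmofur 3, so the groups overlapped, and the log2 fold change of -0.45 (SE 0.147; edgeR adjusted p = 0.999, and from 0.0547 to 1 over the alternatives) lay between -0.61 and -0.29 when each library was left out in turn, the latter without carmofur 2. SARS1, which charges serine, was at 185, 233 and 228 CPM with vehicle and at 157, 112 and 197 CPM with carmofur. Again vehicle 1 was below carmofur 3, and the log2 fold change was -0.47 (SE 0.160; edgeR adjusted p = 0.999, and from 0.0585 to 1 over the alternatives), or -0.28 without carmofur 2. AARS1, the alanine enzyme, showed the same order of libraries, with 184, 228 and 217 CPM against 152, 110 and 196 CPM. Its log2 fold change was -0.46 (SE 0.160), or -0.27 without carmofur 2.

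TARS1, the threonine enzyme, was the most abundant cytosolic member in U251P vehicle, at 651, 709 and 629 CPM, and was at 581, 468 and 613 CPM with carmofur. The groups did not overlap, and its log2 fold change was -0.26 (SE 0.109), or -0.15 without carmofur 2. HARS1, the histidine enzyme and the least abundant cytosolic member, was at 49.6, 37.3 and 46.9 CPM with vehicle and at 47.2, 48.7 and 38.8 CPM with carmofur. Its groups overlapped widely, and its log2 fold change of 0.01 (SE 0.144) turned below 0 under some alternatives. VARS1, which charges valine, was the other cytosolic member above 0, at 0.10 (SE 0.113), and ran from 0.05 to 0.16 with each library left out.

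Among the mitochondrial enzymes of U251P, the larger differences were in genes with few counts. MARS2, the mitochondrial methionine enzyme, had 24, 12 and 13 counts in the vehicle libraries and 61, 43 and 18 in the carmofur libraries, or 4.63, 3.55 and 2.52 CPM and 9.38, 7.48 and 4.42 CPM. Carmofur 3 lay below vehicle 1, so the groups overlapped, and the log2 fold change was 1.02 (SE 0.351; edgeR adjusted p = 0.999, and from 0.498 to 1 over the alternatives). PARS2, the proline enzyme and the least abundant mitochondrial member, had 10, 7 and 17 counts in the vehicle libraries and 30, 19 and 21 in the carmofur libraries, or 1.93, 2.07 and 3.29 CPM and 4.61, 3.30 and 5.16 CPM. All its carmofur values were above its vehicle values in CPM, with a log2 fold change of 0.81 (SE 0.382; edgeR adjusted p = 0.999, and from 0.813 to 1 over the alternatives).

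WARS2, the tryptophan enzyme, was at 17.6, 15.4 and 16.8 CPM with vehicle and at 26.4, 19.3 and 16.5 CPM with carmofur. Carmofur 1 stood above the other libraries and carmofur 3 lay among the vehicle values, with a log2 fold change of 0.33 (SE 0.193) that was 0.11 without carmofur 1. IARS2, the isoleucine enzyme and the most abundant mitochondrial member, was at 70.8, 84.7 and 72.4 CPM with vehicle and at 80.6, 85.5 and 83.0 CPM with carmofur. Its groups overlapped through vehicle 2, and its log2 fold change was 0.13 (SE 0.111), or 0.21 without vehicle 2.

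HARS2, the mitochondrial histidine enzyme, was at 13.9, 16.0 and 16.3 CPM with vehicle and at 13.8, 13.7 and 11.5 CPM with carmofur. The groups were separated by a narrow gap, and the log2 fold change was -0.23 (SE 0.187; edgeR adjusted p = 0.999, and from 0.844 to 1 over the alternatives), or -0.15 without carmofur 3. HARS2 and HARS1 are neighbors that point away from each other on chromosome 5. Their 5′ ends overlap by 437 bases, chr5:140691426-140691862 (GRCh38), away from the transcript ends that give the reads, and the likeness of their sequences was not measured. HARS2 also overlaps ZMAT2, a coding gene on its own strand, and how reads were split between these genes was not tested. Over the whole list, 12 of 19 cytosolic and 13 of 16 mitochondrial genes overlap another annotated gene, 3 and 6 of them on the same strand, and MARS1 overlaps DDIT3, a stress response gene on the opposite strand. Strand use in the counting is not given in the sources used here. Without the overlapping genes, the U251P medians were -0.26 for 7 cytosolic and 0.02 for 3 mitochondrial members.

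**Figure D2:**
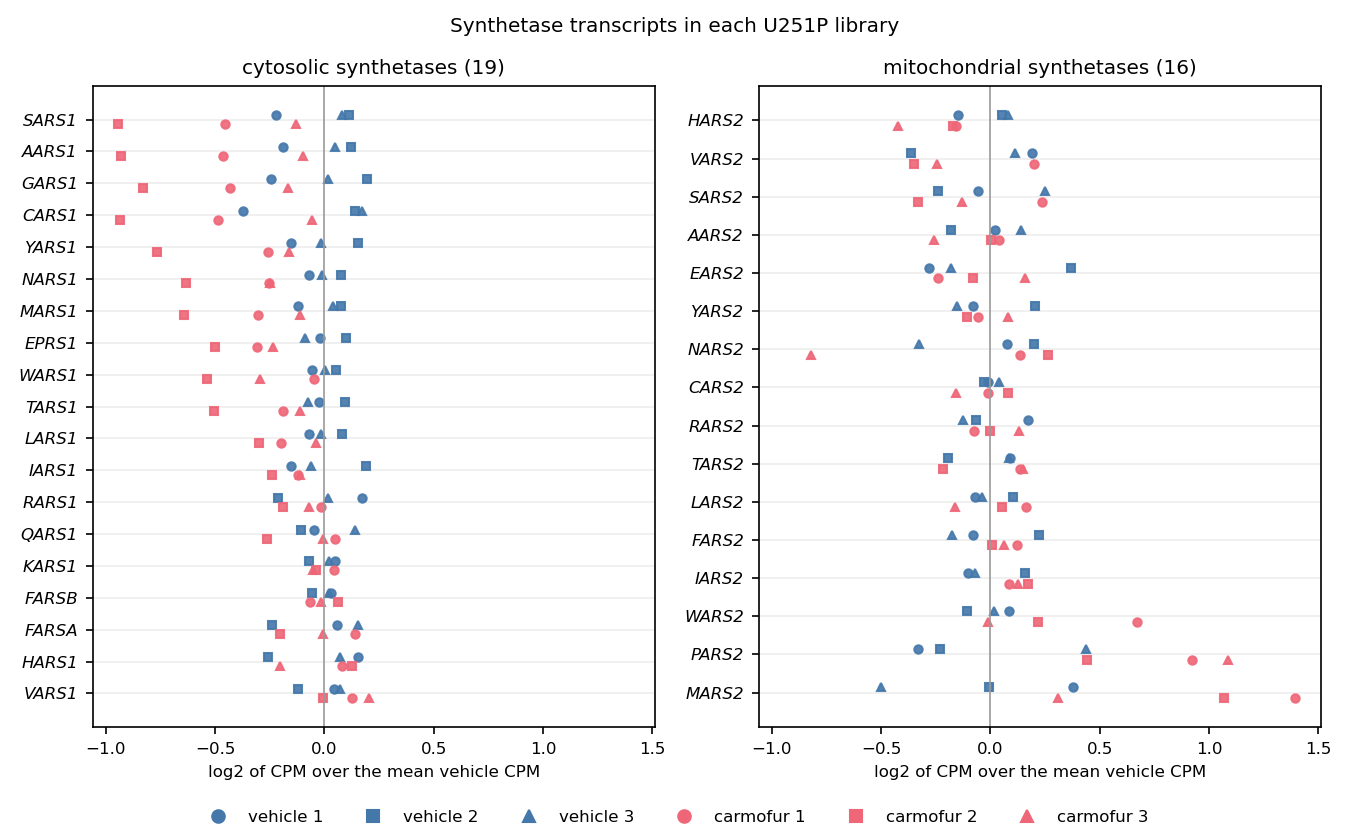
Level of each synthetase in each U251P library relative to its mean in vehicle (horizontal axis, log2 of the CPM ratio), with 1 line for each gene, the 19 cytosolic members on the left, the 16 mitochondrial members on the right, blue symbols for vehicle, red symbols for carmofur and a symbol shape for each replicate number. Carmofur 2 (red squares) lies lowest for many cytosolic members, as SARS1 with 112 CPM against 185 or more with vehicle, while MARS2 and PARS2 reach the highest values on the right.

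Enzymes that charge the same amino acid in the 2 compartments were set side by side for 15 amino acids in U251P. Proline was not among them, although EPRS1 and PARS2 both charge it, and EPRS1 had the lower fold change. The cytosolic gene had the lower fold change in 13 of these 15 pairs, with histidine and valine the exceptions. The differences of the pairs (cytosolic minus mitochondrial, log2) had a median of -0.31 and ran from -1.35 for methionine (MARS1 and MARS2) to 0.23 for histidine. Alanine, cysteine and serine differed by -0.40, -0.43 and -0.41.

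Within the cytosolic group, the 7 enzymes of the multisynthetase complex all had fold changes below 0, with a median of -0.15, and 10 of the 12 other cytosolic enzymes did, with a median of -0.32. The 3 scaffolds of the complex (AIMP1, AIMP2 and EEF1E1) had a median of -0.05, the 5 cytosolic elongation factors -0.04 and the 9 mitochondrial translation factors -0.06. Of 9 further genes of tRNA charging and editing, 8 were above 0, with a median of 0.15. This list holds TARS3, itself a threonine enzyme, and without it, a choice made after the values were seen, 7 of 8 were above 0, with a median of 0.18. With each library left out, the median ran from -0.21 to -0.11 for the complex enzymes (5 to 7 below 0), from -0.42 to -0.18 for the other enzymes and from 0.06 to 0.21 for the 9 charging and editing genes, each nearest to 0 without carmofur 2. Those of the scaffolds (-0.14 to 0.10) and elongation factors (-0.11 to 0.03) changed sign. edgeR and DESeq2 called 0 genes of these lists in U251P. With edgeR, an unadjusted p under 0.05 was found for 2 complex enzymes, 7 other cytosolic enzymes, 0 scaffolds, 1 elongation factor, 0 mitochondrial translation factors and 1 charging or editing gene, against 3.52% of all genes in either direction.

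The promoters of the synthetases were searched for the core of the ATF4 response element, TGATGNAA, and for the core of the site of NRF1 (a regulator of nuclear genes for mitochondria), GCGCATGCG, on both strands. RefSeq windows from 250 bases before to 50 bases after the start (GRCh38.p14) were found for 30 of the 35 genes, 16 cytosolic and 14 mitochondrial, with no entry for LARS1, VARS1, YARS1, AARS2 or VARS2. The ATF4 core was present for 7 of 16 cytosolic members (43.8%), for 1 of 14 mitochondrial members (7.14%) and for 1217 of 27305 genes in all (4.46%). The matches are shown as 30-base windows because these genes include many of the cytosolic members with lower values in U251P. Capitals mark the core or its reverse complement, each window is written 5′ to 3′ on the strand of its gene, and no window shown holds both motifs.
AARS1, chr16:70289675-70289704, minus strand: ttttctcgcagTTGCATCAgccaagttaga
CARS1, chr11:3057407-3057436, minus strand: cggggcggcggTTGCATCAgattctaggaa
GARS1, chr7:30594834-30594863, plus strand: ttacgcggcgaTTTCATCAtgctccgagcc
IARS1, chr9:92293692-92293721, minus strand: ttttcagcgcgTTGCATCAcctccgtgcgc
MARS1, chr12:57488053-57488082, plus strand: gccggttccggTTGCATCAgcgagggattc
NARS1, chr18:57621804-57621833, minus strand: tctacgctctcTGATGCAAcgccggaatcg
TARS1, chr5:33440956-33440985, plus strand: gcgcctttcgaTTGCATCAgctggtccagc
YARS2, chr12:32756076-32756105, minus strand: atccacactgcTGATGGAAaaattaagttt

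These matches lay at -187, -2, -33, -13, -4, 15 and 3 bases from the nearest annotated start for the 7 cytosolic genes in the order shown, and at -197 for YARS2. In U251P the 7 cytosolic members with the core had log2 fold changes from -0.46 to -0.15, all below 0, with a median of -0.37. The 9 cytosolic members searched without a match ran from -0.47 to 0.01, 8 of them below 0, with a median of -0.07. SARS1 had the lowest fold change of all without a match in its window. In U251T, 5 of the 7 members with the core were below 0 (median -0.4), as were 6 of 7 tested without a match (median -0.23). A match describes the letters of a window and does not show binding.

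The NRF1 core was present for 0 of 16 cytosolic members, for 1 of 14 mitochondrial members (7.14%) and for 638 of 27305 genes (2.34%). The member is MARS2, which had the largest fold change among the mitochondrial genes of U251P, and the 250 bases before its start are shown for that reason. Capitals mark 2 overlapping matches, a match on each strand.
MARS2, chr2:197705119-197705368, plus strand: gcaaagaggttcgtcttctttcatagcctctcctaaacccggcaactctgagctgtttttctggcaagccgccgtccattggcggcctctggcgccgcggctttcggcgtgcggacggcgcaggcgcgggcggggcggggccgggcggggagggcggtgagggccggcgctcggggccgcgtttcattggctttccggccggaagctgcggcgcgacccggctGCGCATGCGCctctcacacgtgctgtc

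In U251T, where depth was lower, 17 of 19 cytosolic members passed the filter (FARSA and WARS1 did not) and 14 of these had fold changes below 0 with carmofur. Their median log2 fold change was -0.30, beside 0.01 over all 7204 genes tested. CARS1, HARS1, MARS1 and QARS1, all below 0, reached the level of the filter in all 3 libraries with vehicle alone. AARS1, above 0, did so with carmofur alone, so the counts and medians of this list are partly set by the filter. With at least 10 counts in every library, which drops these genes, the cytosolic median was -0.29. In the main fit, GARS1 was the only member of the 20 tested that edgeR called at an adjusted p under 0.05. Of all genes, 17.1% were called and 8.2% were called as lower. DESeq2 called 0 members and 866 genes. At an unadjusted p under 0.05 with edgeR, 8 cytosolic members were lower and 0 higher, against 14.5% of all genes lower. The carmofur libraries lay wholly below the vehicle libraries for 5 cytosolic members (GARS1, KARS1, LARS1, MARS1 and NARS1) and 2 mitochondrial members (RARS2 and YARS2), against 16.7% of all genes tested. The cytosolic list without GARS1 and KARS1, a choice made after the values were seen, had a median of -0.28.

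Marker genes moved with carmofur in U251T as well. The 9 glioma genes summed to 15300, 13400 and 15200 CPM with vehicle and to 11600, 9720 and 10200 CPM with carmofur. VIM, the most abundant of them, fell from 13400, 11500 and 13100 CPM to 8870, 7200 and 7700 CPM, a log2 fold change of -0.67 (edgeR adjusted p = 0.000493). GFAP was called as lower at -0.96 (edgeR adjusted p = 0.0216), and the call was lost without vehicle 1 (adjusted p = 0.0713), carmofur 2 (0.0691) or carmofur 3 (0.0802). CD44 at 0.39, SOX9 at 0.55 and ANXA2 at 0.45 were called as higher, and each call was lost with no filter (edgeR adjusted p = 0.314, 0.109 and 0.128, the highest over the alternatives), in a single fit of 12 libraries and with some libraries left out. DESeq2 did not call CD44 (adjusted p = 0.0585) or SOX9 (adjusted p = 0.0527), nor did edgeR call CD44 with at least 10 counts in every library (adjusted p = 0.0521). TMSB10 rose from 5620, 5160 and 5170 CPM to 8180, 8110 and 8040 CPM (log2 fold change 0.61; edgeR adjusted p = 0.000574). RBFOX3, the neuronal marker that did not pass the filter, was at 8.35, 0.74 and 0 CPM with vehicle and at 19.3, 8.53 and 18.1 CPM with carmofur, values that did not overlap. The part of these shifts in the synthetase values was not tested.

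GARS1 fell from 124, 149 and 136 CPM with vehicle (137 ± 12.5, SD, n = 3) to 87.2, 97.6 and 87.8 CPM with carmofur in U251T. All carmofur libraries were below all vehicle libraries. These levels rest on 164, 404 and 79 counts in the vehicle libraries and on 86, 103 and 34 in the carmofur libraries. The log2 fold change was -0.59 (SE 0.172; edgeR adjusted p = 0.0247, and from 0.00219 to 0.107 over the alternatives). The call was lost with DESeq2 (adjusted p = 0.0638). With edgeR it was lost without vehicle 2 (adjusted p = 0.0814), without carmofur 1 (adjusted p = 0.107) and without carmofur 3 (adjusted p = 0.0651), with fold changes from -0.67 to -0.51 over all libraries left out in turn.

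KARS1, the lysine enzyme of both compartments, was at 76.6, 75.5 and 65.5 CPM with vehicle and at 47.7, 53.1 and 54.2 CPM with carmofur in U251T. The groups did not overlap, and the log2 fold change was -0.52 (SE 0.206; edgeR adjusted p = 0.0966, and from 0.0417 to 0.277 over the alternatives). TARS1 was at 319, 396 and 281 CPM with vehicle and at 263, 285 and 201 CPM with carmofur. Carmofur 2 lay just above vehicle 3, and the log2 fold change was -0.40 (SE 0.162; edgeR adjusted p = 0.0980, and from 0.00263 to 0.332 over the alternatives), or -0.26 without vehicle 2. CARS1, the cysteine enzyme, had 19, 40 and 6 counts in the vehicle libraries and 1, 6 and 5 in the carmofur libraries, or 14.4, 14.8 and 10.3 CPM and 1.01, 5.69 and 12.9 CPM. Carmofur 3 lay within the vehicle range, and the log2 fold change was -1.40 (SE 0.565; edgeR adjusted p = 0.101, and from 0.0239 to 0.439 over the alternatives). It was -0.77 without carmofur 1 and -1.98 without carmofur 3. CARS1 passed the filter through its level in vehicle, so its fold change leans toward lower values.

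Not all cytosolic members were lower in U251T. AARS1 was at 8.35, 8.51 and 22.4 CPM with vehicle and at 13.2, 15.2 and 18.1 CPM with carmofur, from 47 counts in all with vehicle. Vehicle 3 was the highest library, the groups overlapped, and the log2 fold change was 0.42 (SE 0.447), from 0.13 without vehicle 2 to 0.82 without vehicle 3. IARS1 was at 0.15 (SE 0.158) and FARSB at 0.06 (SE 0.222) on the same scale, and SARS1 at -0.03 (SE 0.137). With each library left out these ran from 0.06 to 0.24, from -0.25 to 0.22 and from -0.10 to 0.05. Some of these genes have annotated pseudogenes with counts in U251T and none in U251P, as FARSBP1 with 230 counts over the 6 U251T libraries, NARS1P2 with 74 and KARS1P3 with 42, so how reads were split between FARSB, NARS1 or KARS1 and such copies is uncertain.

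Most mitochondrial synthetases had too few counts in U251T for a test, where both the depth and the level of most of these genes were lower than in U251P. RARS2, YARS2 and IARS2 were the 3 of 16 that passed the filter. The median of their fold changes was -0.95 on the log2 scale, and edgeR and DESeq2 called 0 of them. At an unadjusted p under 0.05 with edgeR, 2 of the 3 were lower, against 14.5% of all genes tested. RARS2 and YARS2 passed through their level in vehicle, so this count and the median lean toward lower values, while IARS2 was at -0.05. Without vehicle 1 the median was -0.63. The other 13 together held 22, 45 and 23 counts in the vehicle libraries and 13, 17 and 7 in the carmofur libraries. MARS2 and PARS2 were at 0 in all 6 libraries. These 13 were not tested. They summed to 16.7, 16.6 and 39.7 CPM with vehicle and to 13.2, 16.1 and 18.1 CPM with carmofur, overlapping sums with a ratio of 0.649. NARS2, with 4, 3 and 1 counts against 1, 1 and 0, was the 1 of the 13 whose groups did not overlap in CPM, beside the 16.7% of tested genes that lay lower in this way.

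RARS2, the mitochondrial arginine enzyme, was at 25.8, 13.3 and 17.2 CPM with vehicle and at 8.11, 10.4 and 10.3 CPM with carmofur in U251T, from 34, 36 and 10 and from 8, 11 and 4 counts. The groups did not overlap, and the log2 fold change was -0.95 (SE 0.415; edgeR adjusted p = 0.131, and from 0.0635 to 0.465 over the alternatives), or -0.63 without vehicle 1. YARS2, the tyrosine enzyme, was at 19, 15.5 and 17.2 CPM with vehicle and at 4.06, 14.2 and 2.58 CPM with carmofur, from 25, 42 and 10 and from 4, 15 and 1 counts. All carmofur values were below the vehicle values and carmofur 2 was close to them, with a log2 fold change of -1.09 (SE 0.476; edgeR adjusted p = 0.131, and from 0.0151 to 0.440 over the alternatives). Without carmofur 2, YARS2 passed the test at -2.23 (edgeR adjusted p = 0.0151), and without carmofur 1 it was at -0.71. IARS2 was at 84.2, 68.8 and 75.9 CPM with vehicle and at 89.2, 54.0 and 80.1 CPM with carmofur, overlapping groups with a log2 fold change of -0.05 (SE 0.219).

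Summed over all 19 genes, cytosolic synthetases were at 3350, 3440 and 3010 CPM with vehicle (3260 ± 226, SD, n = 3) and at 2740, 2900 and 2630 CPM with carmofur (2760 ± 135) in U251T, a ratio of 0.846. The groups did not overlap. The 16 mitochondrial genes summed to 146, 114 and 150 CPM with vehicle (137 ± 19.5) and to 115, 94.8 and 111 CPM with carmofur (107 ± 10.6), a ratio of 0.781. Carmofur 1 was just above vehicle 2, so these sums overlapped. For the 3 amino acids with both enzymes tested, the cytosolic gene had the lower fold change in 0 pairs. The arginine and tyrosine pairs rest on RARS2 and YARS2, which passed the filter through vehicle, so this count is partly set by the filter. With only genes of at least 10 counts in every library, IARS2 was the single mitochondrial member left, at -0.07, so that filter gives no mitochondrial list to set beside the cytosolic one.

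**Figure D3:**
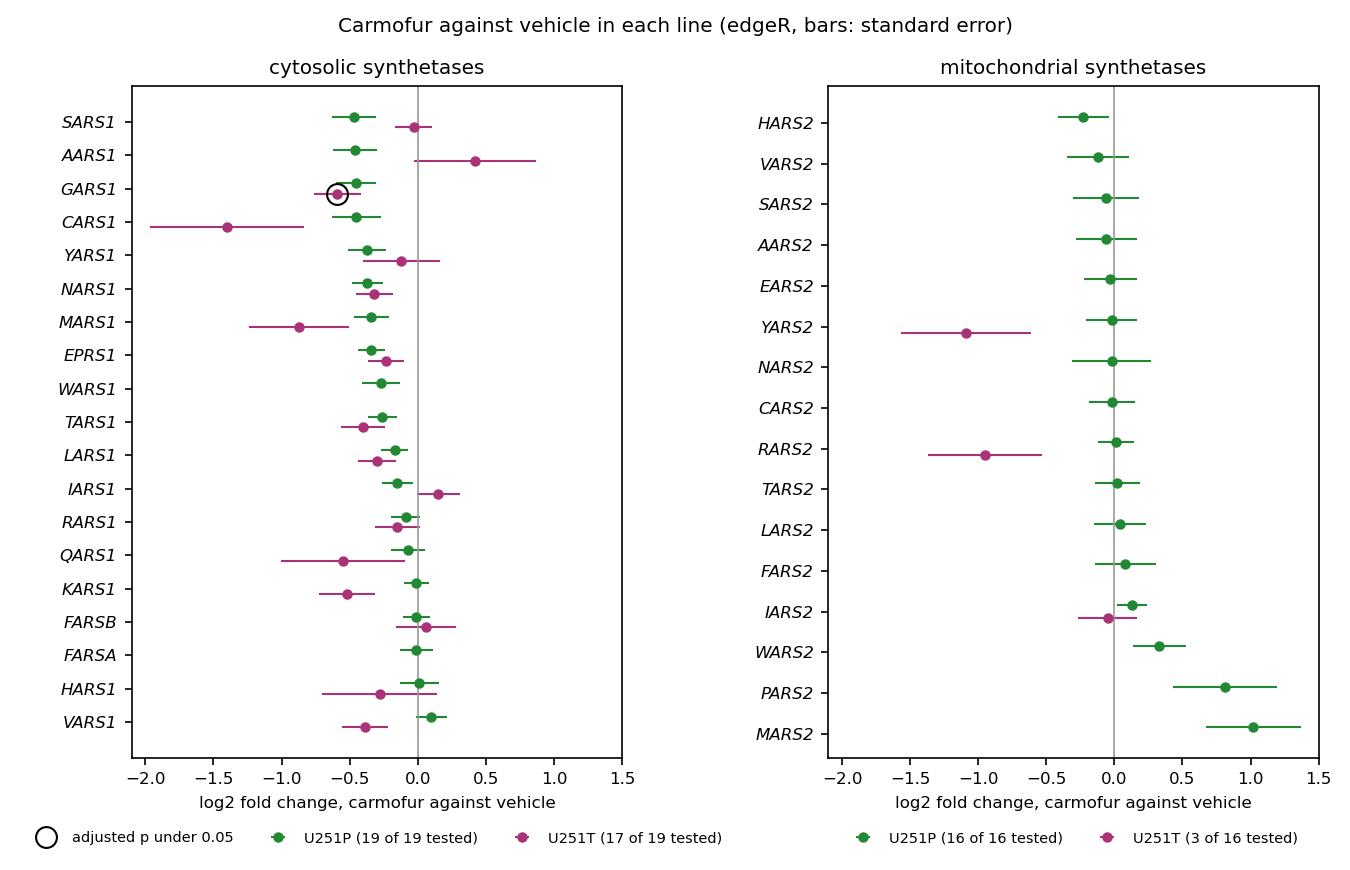
Log2 fold change of carmofur against vehicle (horizontal axis) with its standard error (bars) for each cytosolic (left) and mitochondrial (right) synthetase in U251P and U251T. A ring marks GARS1 in U251T, at -0.59 the only call of the main fits at an adjusted p under 0.05. Missing points are genes that did not pass the filter in U251T.

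Of the 24 amino acid response genes, 9 passed the filter in U251T and 15 were not tested. edgeR called 5 of the 9 as higher (ATF3, SESN2, DDIT4, ALDH1L2 and DDIT3) and 0 as lower, against 8.88% of all genes called as higher. The DDIT3 call was lost with DESeq2 (adjusted p = 0.106), in a single fit of 12 libraries (edgeR adjusted p = 0.0723) and without vehicle 1 (0.0586), vehicle 2 (0.149), carmofur 1 (0.0751) or carmofur 3 (0.146), and the DDIT4 call in the single fit (0.102). The median of the 9 fold changes was 1.08 on the log2 scale, and it depended on which genes were tested. It was 0.64 over 11 genes without carmofur 2 and 0.47 over 12 genes without carmofur 3, and over all 24 genes it was 0.31 with DESeq2, 0.06 with no filter and -0.04 in the single fit. ATF3, a stress-induced transcription factor, rose from 34.1, 19.2 and 39.7 CPM to 107, 116 and 139 CPM, a log2 fold change of 2.06 (edgeR adjusted p = 2.3e-05). ATF4 itself was at or under 3.33 CPM in the U251T vehicle libraries and between 240 and 461 CPM in those of U251P.

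The test of line and treatment together asks whether a carmofur effect differed between the lines. edgeR called 0 of the 34 members tested, beside 560 of 13070 genes (4.28%; 235 higher and 325 lower in U251T, or 333 and 297 with library size scaling), and DESeq2 called 0 members and 780 genes. At an unadjusted p under 0.05 there were 4 cytosolic and 2 mitochondrial members, against 15.1% of all genes. Many of the 15 mitochondrial members tested here had few counts in U251T. Over its 6 libraries MARS2 had 0, AARS2, FARS2 and SARS2 had 1 each and TARS2 had 5. The median SE was 1.1 for the mitochondrial and 0.26 for the cytosolic members, so the lack of a mitochondrial call says little. The GARS1 effect, called in U251T and not in U251P, differed by -0.20 between the lines (SE 0.260; edgeR adjusted p = 0.831, and from 0.630 to 1 over the alternatives), and the value ran from -0.36 to -0.04 with each library left out. A difference between the lines was therefore not shown for GARS1.

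The smallest p-values of this test among the members were those of RARS2 and KARS1. RARS2 was at 50.6, 42.9 and 41.2 CPM with vehicle and 42.6, 44.9 and 49.1 CPM with carmofur in U251P, overlapping values, and its effect in U251T minus that in U251P was -1.01 (SE 0.402; edgeR adjusted p = 0.182, and from 0.0743 to 0.484 over the alternatives). KARS1 was at 233, 214 and 228 CPM and at 232, 219 and 217 CPM in U251P, and its difference was -0.58 (SE 0.245; edgeR adjusted p = 0.224, and from 0.0486, with at least 10 counts in every library, to 0.485 over the alternatives). YARS2 was at 13.9, 16.9 and 13.2 CPM and at 14.1, 13.6 and 15.5 CPM in U251P, again overlapping, with a difference of -1.11 (SE 0.479; edgeR adjusted p = 0.232, and from 0.0209 to 0.599 over the alternatives). Without U251T carmofur 2 the YARS2 difference was -2.30 and passed the test (edgeR adjusted p = 0.0209).

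VARS1 was at 73.3, 65.4 and 74.9 CPM with vehicle and 77.8, 70.8 and 82.1 CPM with carmofur in U251P, and at 310, 343 and 231 CPM and 196, 272 and 212 CPM in U251T. The groups overlapped in each line, and the difference of effects was -0.57 (SE 0.253; edgeR adjusted p = 0.257, and from 0.0169 to 0.510 over the alternatives), which passed without U251T vehicle 3 (edgeR adjusted p = 0.0410). WARS1, the tryptophan enzyme, was at 56.2, 60.7 and 58.5 CPM and 56.6, 40.3 and 47.7 CPM in U251P, and at 3.79, 1.85 and 0 CPM and 5.07, 2.84 and 10.3 CPM in U251T, near the level of 3 counts. AARS1 differed by 0.87 (SE 0.429; edgeR adjusted p = 0.329, and from 0.134 to 0.675 over the alternatives). EARS2 and AARS2, next among the mitochondrial members, had 10 and 0 counts over the U251T vehicle libraries, too few for a fold change between treatments.

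The lines differed in vehicle far more than the treatments did. Of the 19 cytosolic members, edgeR called 13 as lower and 5 as higher in U251T, against 47.6% and 39.3% of the 12047 genes tested. The median log2 difference was -1.54 for the cytosolic members and -0.33 for all genes tested. Of the 16 mitochondrial members 14 were tested, and edgeR called 12 as lower and 0 as higher, with a median of -2.69. Of these 12, 10 passed the filter through their level in U251P alone, as FARSA and WARS1 did. A gene that passes in this way is lower in U251T by the choice itself, so these counts and medians lean toward lower values, and the number of calls does not show how often the members differed. With at least 10 counts in every library 3 mitochondrial members were left, 2 of them called as lower. The differences between the lines also depended on the filter. With at least 10 counts in every library they were shifted by -0.64 to -0.63 for the 15 cytosolic and 3 mitochondrial members left, and with no filter by -0.37 to -0.35 for the cytosolic members, while the median over all genes tested was 0.01 and -1.54.

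The members with the smallest p-values had far lower levels in U251T. FARSA, the catalytic subunit for phenylalanine, was at 118, 95.9 and 126 CPM in U251P vehicle and at 2.28, 2.96 and 1.72 CPM in U251T vehicle, a log2 difference of -5.49 (SE 0.290; edgeR adjusted p = 1.3e-16), from 3, 8 and 1 counts in U251T. CARS1 was at 183, 261 and 267 CPM against 14.4, 14.8 and 10.3 CPM, a difference of -4.14 (SE 0.211; edgeR adjusted p = 6e-17). Every U251T library was far below every U251P library for both genes, as it was for AARS1 at -4.36 (SE 0.231) and WARS1 at -4.78 (SE 0.345), which had 5, 5 and 0 counts in U251T vehicle. FARSA and WARS1 were in the test through their level in U251P alone.

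MARS1 was at 128, 147 and 143 CPM in U251P vehicle and at 28.8, 27.7 and 32.8 CPM in U251T vehicle, a log2 difference of -2.32 (SE 0.174). YARS1 was at 159, 197 and 175 CPM against 34.1, 41.1 and 20.7 CPM, a difference of -2.40 (SE 0.181). The groups of both genes were wide apart. FARSB, the other subunit of the phenylalanine enzyme, differed by -0.89 (SE 0.156), much less than FARSA, whose protein forms the enzyme with it.

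The 5 cytosolic members that were higher in U251T vehicle were VARS1 at 2.01, NARS1 at 1.01, IARS1 at 1.00, EPRS1 at 0.90 and SARS1 at 0.43 on the log2 scale. With at least 10 counts in every library these were 1.37, 0.37, 0.37, 0.26 and -0.20, and EPRS1 (edgeR adjusted p = 0.0556, the highest over its alternatives) and SARS1 were not called. The SARS1 call was the least stable. It was lost with edgeR without U251P vehicle 1 (0.27 on the log2 scale, adjusted p = 0.243), without U251P vehicle 3 (adjusted p = 0.0799), without U251T vehicle 1 (adjusted p = 0.112) and without U251T vehicle 2 (adjusted p = 0.0798), over a range of 0.00182 to 0.676 for all alternatives. DESeq2 did not call it (adjusted p = 0.0525), nor did edgeR with no filter (0.07, adjusted p = 0.676) or in the single fit of 12 libraries (0.27, adjusted p = 0.150). LARS1, the leucine enzyme, was not called at 0.18 (SE 0.136), and ran from 0.01 to 0.21 with each library left out. It turned to -0.19 with no filter, not called, and to -0.46, a call as lower, with at least 10 counts (edgeR adjusted p = 0.00264).

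Among the mitochondrial members tested, IARS2 and YARS2 were not called between the lines. IARS2 was at 84.2, 68.8 and 75.9 CPM in U251T vehicle and at 70.8, 84.7 and 72.4 CPM in U251P vehicle, and the log2 difference was -0.06 (SE 0.159; edgeR adjusted p = 0.729, and from 0.000375 to 0.897 over the alternatives). IARS2 was called as lower in U251T with at least 10 counts in every library (-0.70, edgeR adjusted p = 0.000375) and with no filter (-0.42, edgeR adjusted p = 0.0358). YARS2 differed by 0.17 (SE 0.280), and by -0.47 with at least 10 counts (edgeR adjusted p = 0.107). In CPM both genes overlapped between the lines.

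The other 14 mitochondrial members were lower in U251T vehicle or had no counts there. AARS2, MARS2 and PARS2 had 0 counts over the 3 U251T vehicle libraries, which against a floor of 3 counts over the group makes AARS2 at least 15.7-fold lower, MARS2 at least 5.72-fold lower and PARS2 at least 3.97-fold lower than in U251P. FARS2 and SARS2 had 1 count each, ratios of 0.0232 (95% counting interval 0.000583 to 0.132) and 0.0216 (0.000544 to 0.123). Such intervals and floors cover counting error only. With the genes at 0 set to their bounds, the median log2 difference over all 16 mitochondrial members was -2.48, and over all 19 cytosolic members the same measure was -1.49. Together, 588 mitochondrial synthetase counts were found in U251T vehicle, where 1420 would stand at the U251P level, and 15441 cytosolic counts where 19400 would stand.

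**Figure D4:**
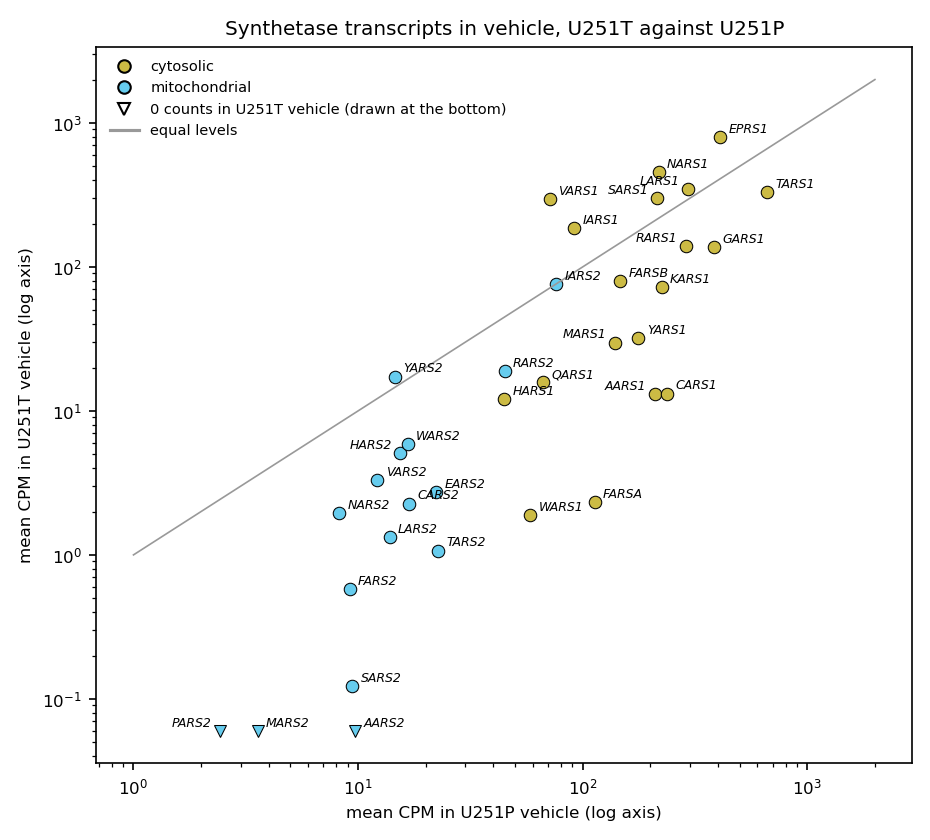
Mean level of each synthetase in U251T vehicle (vertical axis, CPM, log scale) against U251P vehicle (horizontal axis, CPM, log scale), 3 libraries each, with triangles at the bottom for genes with 0 counts in U251T vehicle. Most points lie below the line of equal levels, and VARS1, at 295 against 71.2 CPM, lies farthest above it.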

How the data were processed

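The authors made QuantSeq 3′ libraries and deposited 1 table of raw counts with a row for each Ensembl gene. The build was hg38 per the submitters' processing notes. The study names the FWD version of the QuantSeq kit, while annotation and strand use in the counting are not given in the sources used here. All 60107 identifiers were used, with positions from GENCODE release 29. The main test was edgeR 4.0.16 (quasi-likelihood) under R 4.3.3, run on each line alone after TMM scaling and filterByExpr, with p-values adjusted by Benjamini and Hochberg and called under 0.05. It also compared the lines in vehicle, and the interaction of line and treatment over 12 libraries. Values in every library are given for members called (the 6 with the smallest p), otherwise for the 4 cytosolic and 4 mitochondrial members with the smallest p, for the most and least abundant members and for HARS1 and HARS2. Other genes were named after their values were seen. Lists are described by counts and medians without a test. Alternatives were DESeq2 1.42.0, upper-quartile and library size scaling, no filter, a minimum of 10 counts per library, the replicate block, an adjusted p under 0.1, a single fit of 12 libraries and each library left out. The members and lists were chosen with earlier results of these data known. The steps were tested on simulated data. Proteins were not analysed here. The result of 1 marker list is not reported here. Plots used matplotlib 3.10.9 under Python 3.11.15.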

Additional observations from a re-analysis of the deposited data

Results flagged for a closer look

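In the main fit, the test of the difference between the lines called no synthetase, but it called 5 genes of the lists set beside the synthetases. KARS1, VARS1 and YARS2 were called under some alternatives. ATF3 had a log2 effect 2.31 higher in U251T than in U251P (SE 0.398; edgeR adjusted p = 0.000183, and at most 0.0014 over the alternatives). SESN2, a stress-induced regulator of mTORC1, differed by 2.19 (edgeR adjusted p = 0.00905) and was not called by DESeq2 (adjusted p = 0.121, the highest over the alternatives). In U251P its vehicle libraries were themselves spread, at 25.1, 121 and 93.0 CPM.

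DDIT4, an inhibitor of mTORC1 signaling, differed by 2.60 (edgeR adjusted p = 0.0399, and at most 0.215 over the alternatives). Its call was lost without U251P vehicle 2 (edgeR adjusted p = 0.140), U251P carmofur 1 (0.0672), U251P carmofur 2 (0.0697), U251T vehicle 2 (0.124), U251T carmofur 1 (0.0798), U251T carmofur 2 (0.0809) or U251T carmofur 3 (0.0955), and also with DESeq2 (adjusted p = 0.215), upper-quartile scaling (edgeR adjusted p = 0.0502) or at least 10 counts in every library (edgeR adjusted p = 0.0896). ALDH1L2, a mitochondrial folate enzyme, differed by 1.72 (edgeR adjusted p = 0.0374, and at most 0.406 over the alternatives). In U251P ALDH1L2 had few counts, 7, 9 and 24 with vehicle and 6, 5 and 11 with carmofur. Its call was lost without U251P vehicle 2 (edgeR adjusted p = 0.0631), U251P vehicle 3 (0.406), U251P carmofur 1 (0.159), U251P carmofur 2 (0.146), U251T vehicle 1 (0.0640), U251T carmofur 1 (0.0670) or U251T carmofur 2 (0.0622).

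GFM1, the elongation factor G of mitochondria, had a lower effect in U251T by -1.10 (SE 0.273; edgeR adjusted p = 0.0121, and at most 0.0792 over the alternatives). Its levels were 44.8, 60.3 and 51.7 CPM with vehicle and 29.4, 30.3 and 28.4 CPM with carmofur in U251T, groups that did not overlap. The call was lost without U251T vehicle 2 (edgeR adjusted p = 0.0792) or U251T carmofur 1 (0.0511).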

How the results depend on the processing

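Most results kept their direction and their side of the threshold, and these did not (the cause was not tested unless given). In U251P, 19 genes were called with no filter on low counts and from 0 to 1 with each library left out, and the mitochondrial median was 0.06 with vehicle 2 and carmofur 2 left out and from -0.02 to 0.08 with each library left out. HARS1 turned below 0 with library size scaling (-0.02), with both libraries left out (-0.16) and without vehicle 2 (-0.10), carmofur 1 (-0.03) or carmofur 2 (-0.05). In U251T, cytosolic calls were 0 with DESeq2, 3 at an adjusted p under 0.1 and from 0 to 3 with each library left out, and mitochondrial calls from 0 to 1. With at least 10 counts in every library, which left IARS2 alone of the mitochondrial members, the mitochondrial median was -0.07 and the cytosolic minus mitochondrial difference -0.22 (main -0.95 and 0.65), and with each library left out these ran from -1.19 to -0.63 and from 0.33 to 0.91. IARS2 turned above 0 without vehicle 1 (0.03) or carmofur 2 (0.16) and ran from -0.25 to 0.16 with each library left out. Between the lines, at least 10 counts left 3737 calls, 2 mitochondrial calls, medians of -1.67 and -0.70, a difference of -0.98 (main -1.54, -2.69 and 1.15), SARS1 at -0.20 and LARS1 at -0.46 (-0.19 with no filter). The cytosolic median was -1.69 with DESeq2, -1.91 with no filter, -1.70 in a single fit of 12 libraries, from -1.74 to -1.5 with each library left out and, by choices made after seeing the data, -1.08 without GARS1 and KARS1 and -0.89 over members with no overlapping gene. The mitochondrial median was -3.34 with DESeq2 (difference 1.65) and -3.53 with no filter. For the difference of effects between lines, leaving out each library gave from 366 to 719 calls, from 0 to 1 cytosolic and from 0 to 1 mitochondrial call, and cytosolic medians from -0.26 to -0.01. There, at least 10 counts gave 1 cytosolic call, a mitochondrial median of -0.22 (IARS2 alone) and a difference of 0.17, DESeq2 gave -0.21 and 0.16 (main -1.10 and 0.95), and the cytosolic median (main -0.15) was -0.03 with library size scaling and -0.02 with no overlapping gene. The main mitochondrial median there includes members with 0 or few counts in U251T, such as MARS2. Replicate numbers did not pair the libraries: correlations of same-numbered deviations were 0.2142, -0.0331 and 0.2695 in U251P, 0.08464, 0.3424 and 0.08215 in U251T, and -0.0395, 0.01228 and 0.01398 between lines, and not every library correlated best with its own number. With the replicate block, calls numbered 1 in U251P, 2079 in U251T with 9 cytosolic and 1 mitochondrial, and 1152 for the difference of effects with 1 cytosolic. Counts limit the mitochondrial members of U251T, of which 13 were not tested, and both their level and the depth were lower there than in U251P.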
